A study of Homo sapiens with 54 samples.

Results

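Blocking BRAF was set against blocking MEK in WM266-4, an established human melanoma cell line with the genotype BRAF V600D, after 24 h of drug. The comparison used 9 of the 54 arrays of the study. These were the 3 arrays of cells given 0.05 uM LGX818 (encorafenib, a RAF inhibitor), the 3 given 0.003 uM trametinib and the 3 given 0.3 uM MEK162 (binimetinib), both inhibitors of MEK1 and MEK2. The members of each group were taken from the labels, and the 2 MEK inhibitor groups were weighted equally, so that each gene has 1 difference, LGX818 minus the mean of trametinib and MEK162. All groups carry the same BRAF allele, and cells of the same line given the vehicle DMSO for 24 h (3 arrays) are shown as the reference level. Arrays of an unnamed ERK1/2 inhibitor at 0.2 uM (3 arrays at 24 h) and of the same drugs at 3 h appear beside the results where they bear on them. Each drug was used at 1 dose in 1 line, and the doses differ, so the drug's target and the strength of the block cannot be told apart. MEK162 arrays b and c are titled MER162 and were placed by their treatment field, which reads MEK162. The labels speak of triplicates without naming separate cultures, so p-values, from a spread pooled over the 30 inhibitor and DMSO arrays, measure differences between arrays that may be technical.

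In melanoma cells with an activating BRAF mutation, BRAF phosphorylates MEK1 and MEK2, which phosphorylate ERK1 and ERK2, and ERK drives transcription of growth genes and of its own feedback inhibitors. The feedback inhibitors include the dual-specificity phosphatase DUSP6, which dephosphorylates ERK, and the sprouty and SPRED proteins, which restrain signalling from RAS to RAF; their transcripts fall when ERK activity falls and are widely used as readouts of the pathway. ERK also sustains cyclin D1, and with it the release of E2F factors that switch on replication genes and, later in the cycle, mitotic genes.

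The starts of 6 genes were searched for regulatory letters that go with these groups in textbook accounts, and 4 of them hold a match. The 6 are the members with the largest called fall, among those with a window, in the lists of ERK feedback regulators (SPRY2 and DUSP6), replication genes (DTL and MCM10) and mitotic genes (SPC25 and AURKB). Each window runs from 250 bases before to 50 bases after the transcription start in RefSeq (build GRCh38.p14; the first start listed where a gene has several) and is printed 5′ to 3′ on the gene's own strand. Capitals mark TGAATGA or TGAATGG (bound by the repressor CIC, which ERK inactivates) in the first pair, TTTGGCG or TTTCCCG (forms of the E2F site) in the second pair and TTTGAA (the cell cycle homology region, CHR) in the third, each searched on both strands; no motif contains another. The windows lie at chr13:80341077-80341376 (minus strand) for SPRY2, chr12:89352452-89352751 (minus strand) for DUSP6, chr1:212035498-212035797 (plus strand) for DTL, chr10:13161308-13161607 (plus strand) for MCM10, chr2:168890381-168890680 (minus strand) for SPC25 and chr17:8210176-8210475 (minus strand) for AURKB.
SPRY2: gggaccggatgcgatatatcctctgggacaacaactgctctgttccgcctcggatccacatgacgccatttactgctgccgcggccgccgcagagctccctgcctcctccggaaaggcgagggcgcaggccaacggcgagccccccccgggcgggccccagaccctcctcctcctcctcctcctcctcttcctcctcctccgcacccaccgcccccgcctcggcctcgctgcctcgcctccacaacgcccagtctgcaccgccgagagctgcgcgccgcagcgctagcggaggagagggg
DUSP6: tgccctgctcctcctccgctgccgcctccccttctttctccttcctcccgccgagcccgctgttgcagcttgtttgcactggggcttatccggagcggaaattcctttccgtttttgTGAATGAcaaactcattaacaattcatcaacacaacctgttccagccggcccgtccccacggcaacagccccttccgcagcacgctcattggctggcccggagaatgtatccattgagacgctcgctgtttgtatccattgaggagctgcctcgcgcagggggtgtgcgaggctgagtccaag
DTL: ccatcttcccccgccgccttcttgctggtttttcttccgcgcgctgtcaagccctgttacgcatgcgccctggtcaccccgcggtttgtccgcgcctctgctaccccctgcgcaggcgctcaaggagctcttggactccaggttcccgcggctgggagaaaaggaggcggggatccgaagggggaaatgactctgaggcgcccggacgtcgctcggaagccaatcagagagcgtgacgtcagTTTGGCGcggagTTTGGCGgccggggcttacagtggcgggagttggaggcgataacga
MCM10: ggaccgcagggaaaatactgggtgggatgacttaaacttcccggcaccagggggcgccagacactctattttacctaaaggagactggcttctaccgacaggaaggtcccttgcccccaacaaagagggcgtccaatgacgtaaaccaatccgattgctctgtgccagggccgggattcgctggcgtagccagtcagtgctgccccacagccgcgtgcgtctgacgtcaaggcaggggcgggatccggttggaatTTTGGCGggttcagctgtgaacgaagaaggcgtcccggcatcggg
SPC25: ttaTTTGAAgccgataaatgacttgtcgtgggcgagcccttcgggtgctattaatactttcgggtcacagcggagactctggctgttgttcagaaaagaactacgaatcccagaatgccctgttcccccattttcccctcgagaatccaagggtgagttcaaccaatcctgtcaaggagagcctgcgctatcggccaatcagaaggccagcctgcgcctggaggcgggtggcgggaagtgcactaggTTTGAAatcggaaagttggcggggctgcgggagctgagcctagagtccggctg
AURKB: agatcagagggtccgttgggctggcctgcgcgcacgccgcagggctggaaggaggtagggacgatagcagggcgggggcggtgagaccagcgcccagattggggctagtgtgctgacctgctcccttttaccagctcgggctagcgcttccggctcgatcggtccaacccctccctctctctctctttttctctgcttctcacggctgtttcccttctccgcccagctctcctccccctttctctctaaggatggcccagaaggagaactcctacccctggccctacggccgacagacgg

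The letters TTTGAA were present in the windows of 23 of 34 mitotic genes (67.6%), against 796 of 8158 tested genes with a window (9.76%). The E2F letters were present in 21 of 37 replication genes (56.8%) against 9.88% of all tested genes with a window. The CIC letters were found in 1 of 8 feedback genes with a window, that of DUSP6, against 4.34% of all tested genes with a window. SPRY2 and AURKB hold no match in the window shown. Each gene was searched at 1 listed start, so a match at another start of the gene would be missed. In DUSP6 the match begins at position -133 (the start being 0), in DTL at -8 and 4, in MCM10 at 5 and in SPC25 at -247 and -3. These shares describe the letters in a short window, and binding was not measured.

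Of 9703 genes tested, 411 were higher with LGX818 than with the mean of both MEK inhibitors (4.24%) and 544 were lower (5.61%), at a Benjamini-Hochberg adjusted p under 0.05 in limma. A gene was tested when at least 1 inhibitor or DMSO group had a mean above the median of all values, 7.86 on the log2 scale of the arrays. Most differences were small. The median size among the 955 called genes was 0.32 log2, 770 were under 0.5 log2, and 20 were over 1 log2. In 259 of the higher genes (2.67% of genes tested) and 285 of the lower genes (2.94%), all 3 LGX818 arrays lay beyond all 6 MEK inhibitor arrays. Counting every tested gene, called or not, 646 lay above and 414 below in this way. Among all genes tested the median difference was 0.02 log2. When each array was centred on its median, the split was 291 higher and 699 lower. The majority turned with only the 9 arrays in the fit (578 higher and 477 lower) and with array weights (1401 higher and 1089 lower). Without LGX818 array b, 550 genes were called in place of 955.

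The comparison with each MEK inhibitor on its own gave unlike counts. Against trametinib, LGX818 had 748 genes higher (7.71%) and 823 lower (8.48%). Against MEK162 it had 20 higher (0.206%) and 87 lower (0.897%). Both comparisons share the LGX818 arrays. With only the arrays of both groups in the fit, the MEK162 comparison had 15 calls, 2 higher and 13 lower. Trametinib and MEK162 themselves differed in 445 genes, 352 higher and 93 lower with trametinib. Among the 544 genes lower with LGX818, the levels ran LGX818 below MEK162 below trametinib in 506 (93%), an order seen in 24.8% of all tested genes. Among the 411 higher genes, the reverse order held in 399 (97.1%), against 33.1% of all. The place of LGX818 in that order follows from the selection of these genes. Relative to DMSO, the lower genes had median differences of -1.003 log2 with LGX818, -0.74 with MEK162, -0.55 with trametinib and -0.54 with the ERK inhibitor. For the higher genes the medians were 0.56, 0.38, 0.20 and 0.31. LGX818 lay further from DMSO than the MEK inhibitor mean, on the same side, in 419 lower genes (77%) and 290 higher genes (70.6%), against 58.8% of all tested genes. The trametinib count fell from 1571 to 955 without trametinib array c and to 1020 without LGX818 array b.

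**Figure D1:**
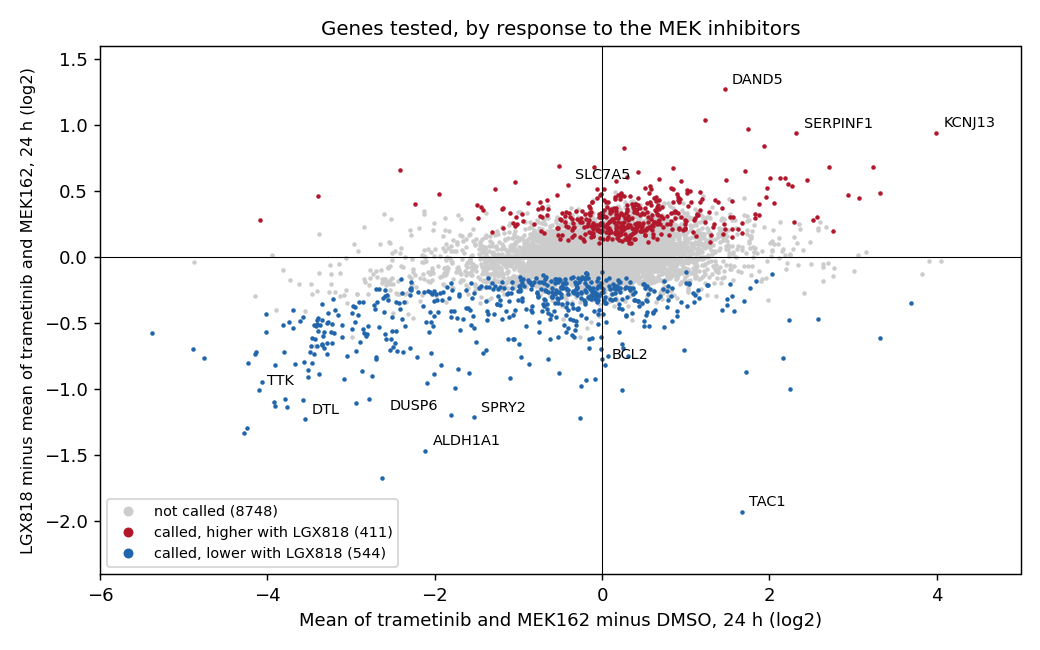
Each point is 1 of the 9703 genes tested. The horizontal axis is the mean of trametinib and MEK162 minus DMSO at 24 h and the vertical axis is LGX818 minus that mean at 24 h, both in log2; red and blue mark the 411 higher and 544 lower calls. The blue points reach from the left side, where the MEK inhibitors lowered genes such as DTL and TTK, to TAC1 on the right.

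Within each of the 3 groups the arrays correlated closely, with a mean coefficient per array of 0.996 to 0.998, and 0 pairs were identical. The 3' minus 5' signal of the ACTB control probe sets, which rises with RNA degradation, was 1.06 to 1.47 with LGX818 and 0.981 to 1.18 with the MEK inhibitors; for GAPDH it was 0.224 to 0.470 and 0.230 to 0.330. With the ACTB value as a covariate 910 genes were called, and with both LGX818 arrays a and b left out, the highest in ACTB, 349 were. The melanocytic origin of the line was visible in its markers: 9 of 9 melanocyte markers exceeded the filter level in at least 1 of these arrays, led by TYRP1 at a mean of 13.2. Their mean level per array was 11.7 to 11.8 with LGX818 and 11.4 to 11.7 with the MEK inhibitors. Of markers of other cell types, 0 of 4 epithelial, 0 of 5 endothelial, 1 of 6 leukocyte (CD68) and 1 of 7 fibroblast markers (FAP) exceeded it, with list means of 5.39 to 5.43 and 5.15 to 5.38 for the leukocyte markers and 6.43 to 6.55 and 6.33 to 6.42 for the fibroblast markers.

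Feedback inhibitors of the ERK pathway were lower with LGX818 than with the MEK inhibitor mean, over 1 log2 in DUSP6, SPRY2 and SPRY1. Of 11 tested feedback regulators, 6 were lower and 0 higher, with a list median of -0.47 log2 against 0.02 for all tested genes. The share of all tested genes that were lower was 5.61%. With both LGX818 arrays a and b left out, 4 members were called. The 6 were DUSP6, SPRY1, SPRY2, SPRY4, SPRED1 and SPRED2. DUSP6, the phosphatase of ERK, stood at 10.04, 9.64 and 9.66 log2 with LGX818, at 11.28, 11.39 and 11.46 with trametinib and at 10.59, 10.60 and 10.52 with MEK162. The DMSO arrays stood at 12.71, 12.88 and 12.74. The LGX818 arrays lay below all 6 MEK inhibitor arrays, and all 9 lay below DMSO. The difference was 2.29-fold lower (log2 difference -1.19, SE 0.0705, adjusted p = 3.81e-12), and it passed against each drug, with -1.60 against trametinib and -0.79 against MEK162 (adjusted p = 6.88e-14 and 1.33e-06).

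SPRY2, a sprouty protein that restrains receptor tyrosine kinase signalling, showed the same ordering of groups. Its levels were 10.27, 10.03 and 10.18 with LGX818, 11.62, 11.85 and 11.80 with trametinib and 10.88, 11.07 and 11.01 with MEK162, from 12.90, 12.90 and 12.92 in DMSO. No LGX818 array overlapped the MEK inhibitor arrays, and the level was 2.31-fold lower (log2 difference -1.21, SE 0.0745, adjusted p = 7.69e-12). SPRY1, its paralog, was 2.11-fold lower (log2 difference -1.07, SE 0.098, adjusted p = 9.63e-09), with differences of -1.35 against trametinib and -0.80 against MEK162; both passed (adjusted p = 9.13e-10 and 8.48e-05). SPRY4 stood at 7.63, 7.50 and 8.08 with LGX818, 9.10, 8.75 and 9.02 with trametinib and 8.05, 7.94 and 8.17 with MEK162. For SPRY4 the LGX818 arrays overlapped those of MEK162 and lay below those of trametinib; the call against the mean (log2 difference -0.77, SE 0.13, adjusted p = 1.10e-04) went with -1.22 against trametinib and -0.31 against MEK162, of which the second did not pass (adjusted p = 0.486).

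The SPRED proteins, which recruit neurofibromin to RAS, were also lower, SPRED1 (log2 difference -0.51, SE 0.0972, adjusted p = 6.57e-04) and SPRED2 (log2 difference -0.47, SE 0.0735, adjusted p = 6.41e-05). DUSP4, a nuclear ERK phosphatase, was not called, with a log2 difference of 0.08 (SE 0.0432, adjusted p = 0.249), and it stood -0.59, -0.68 and -0.67 log2 from DMSO with LGX818, MEK162 and trametinib. Of 9 genes often summed as a measure of ERK output, 5 were lower and 0 higher. They were DUSP6, SPRY2 and SPRY4, which the feedback list also holds, CCND1, and PHLDA1, a pleckstrin homology protein (log2 difference -0.27, SE 0.0639, adjusted p = 0.00575), whose call was lost without LGX818 array b (adjusted p = 0.0512). Against trametinib 7 of the 11 feedback regulators were lower, and against MEK162 3 were, and 0 were higher in either. Beside these, 8.48% and 0.897% of all tested genes were lower.

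**Figure D2:**
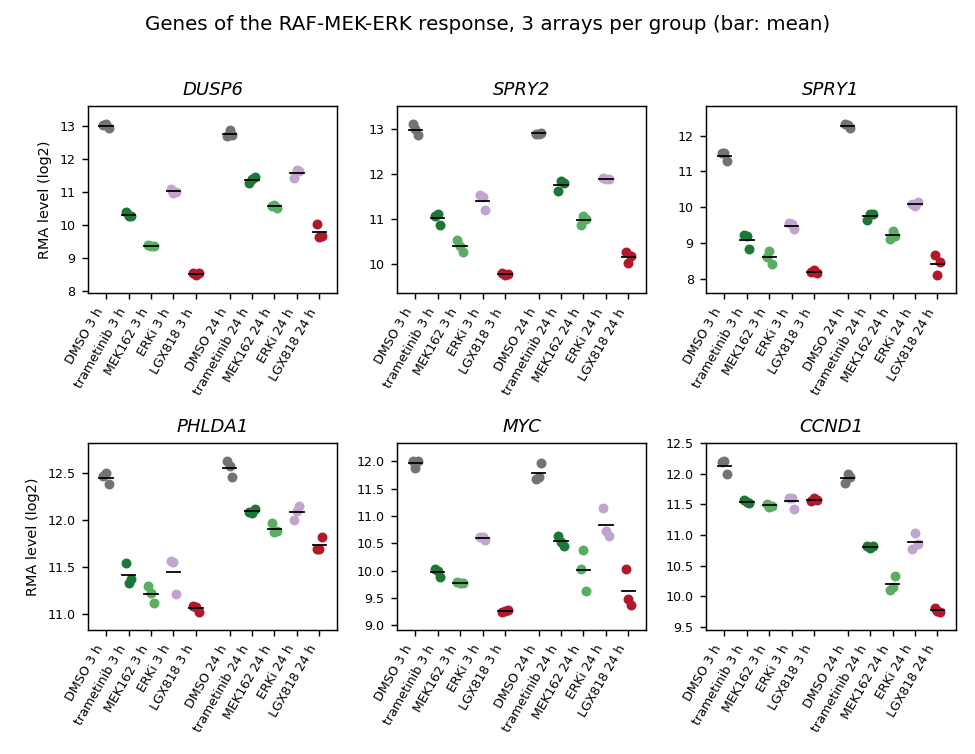
Log2 array levels of 6 genes in the DMSO, trametinib, MEK162, ERK inhibitor (ERKi) and LGX818 groups at 3 h and 24 h; each point is 1 array and the bar is the mean of 3. DUSP6, SPRY2 and SPRY1 stand lowest with LGX818 at both times, whereas CCND1 separates at 24 h and not at 3 h.

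Immediate early and ETS factors, the first genes that ERK switches on, gave a mixed picture: 6 of 25 were lower, 1 was higher, and the list median was -0.03 log2. Over all tested genes 5.61% were lower and 4.24% higher. MYC, a growth-promoting transcription factor, stood at 10.03, 9.49 and 9.37 with LGX818, 10.64, 10.53 and 10.46 with trametinib and 10.02, 10.37 and 9.63 with MEK162; the LGX818 and MEK162 arrays overlapped (log2 difference -0.64, SE 0.13, adjusted p = 9.56e-04). The other lower factors were EGR3, NR4A2, ETV1, ETS2 and KLF6, between -0.22 and -0.57 log2. The call of EGR3 was lost without LGX818 array c (adjusted p = 0.0804). MAFF, a small MAF factor, was higher with LGX818 at 8.11, 8.31 and 7.93 against 7.74, 7.68 and 7.42 and 7.71, 7.73 and 7.64, all far below the 10.98, 11.06 and 11.12 of DMSO (log2 difference 0.46, SE 0.0736, adjusted p = 6.72e-05). JUN stood 4.02, 4.08 and 4.02 log2 above DMSO with LGX818, MEK162 and trametinib, and its difference between the target classes was -0.03 (SE 0.0554, adjusted p = 0.812). EGR1, ETV4 and ETV5 stood -2.87, -2.78 and -3.05, -3.91, -3.78 and -3.85 and -4.45, -4.72 and -3.58 log2 from DMSO, each in the order LGX818, MEK162 and trametinib, and were not called between the target classes (log2 differences 0.05, -0.09 and -0.30, adjusted p = 0.88, 0.743 and 0.246). FOSL1 came close to the threshold (log2 difference -0.33, SE 0.11, adjusted p = 0.0535).

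Among the pathway's own kinases and regulators, 1 of 15 tested was higher and 1 lower. Of all tested genes, 4.24% were higher and 5.61% lower. ARAF, a RAF family kinase, was higher by 0.27 log2 (SE 0.0843, adjusted p = 0.042) and RASA2, a RAS GTPase activating protein, was lower with a log2 difference of -0.47 (SE 0.11, adjusted p = 0.00542). The call of ARAF was lost on leaving out any of 7 of the 9 arrays and that of RASA2 without LGX818 array a, where its adjusted p was 0.0512. The transcripts of MEK1 (MAP2K1), MEK2 (MAP2K2) and ERK1 (MAPK3) had log2 differences of 0.08, -0.08 and 0.02 and did not pass (adjusted p = 0.752, 0.65 and 0.909).

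Replication and mitotic genes made up many of the largest falls, and in these the contrast lay mainly with trametinib. Of 40 tested mitotic genes, 29 were lower with LGX818 than with the MEK inhibitor mean and 0 were higher (list median -0.48 log2). Of 41 replication genes, 20 were lower and 0 higher (median -0.21). Against trametinib alone 35 mitotic and 28 replication genes were lower, with medians of -0.90 and -0.43 log2. Against MEK162 alone 0 mitotic genes were lower and 1 was higher, 2 replication genes were lower and 0 were higher, and the medians were -0.05 and -0.03. Relative to DMSO the medians over the mitotic genes were -3.48 with LGX818, -3.39 with MEK162, -2.64 with trametinib and -2.55 with the ERK inhibitor. With both LGX818 arrays a and b left out, 22 mitotic and 12 replication genes were lower. Among all tested genes 5.61% were lower in the main comparison, 8.48% against trametinib and 0.897% against MEK162. The level filter took in genes through any inhibitor or DMSO group. With a filter on only the 3 groups compared, 31 mitotic and 28 replication genes were tested. Of these, 24 and 13 were lower with LGX818 than with the MEK inhibitor mean, and 0 were higher. In bulk RNA, fewer cycling cells and less transcript per cycling cell cannot be told apart.

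RRM2, the regulated subunit of ribonucleotide reductase, illustrates the ordering at levels well above the filter. It stood at 9.17, 9.22 and 9.14 with LGX818, 9.41, 9.38 and 9.63 with MEK162 and 10.90, 11.13 and 11.24 with trametinib, from 13.23, 13.26 and 13.19 in DMSO. The 3 LGX818 arrays lay below every MEK inhibitor array, close to MEK162 and far from trametinib (log2 difference -1.10, SE 0.0563, adjusted p = 2.69e-13), with -1.91 against trametinib and -0.29 against MEK162 (adjusted p = 2.30e-17 and 0.0172). DTL, which directs the replication licensing factor CDT1 to degradation, stood at 5.41, 5.67 and 5.67 with LGX818, 6.04, 6.04 and 5.94 with MEK162 and 7.47, 7.69 and 7.67 with trametinib, and was 2.34-fold lower (log2 difference -1.23, SE 0.0728, adjusted p = 3.81e-12). MCM10, a replication initiation factor, was lower with a log2 difference of -1.12 (SE 0.11, adjusted p = 4.40e-08), with LGX818 arrays at 5.52, 5.24 and 5.12 that overlapped MEK162 at 6.15, 5.76 and 5.33 and lay below trametinib at 6.92, 7.08 and 7.25.

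SPC25, a subunit of the NDC80 kinetochore complex, gave 5.61, 6.54 and 6.15 with LGX818, 6.65, 6.50 and 6.47 with MEK162 and 8.15, 8.21 and 8.36 with trametinib (log2 difference -1.29, SE 0.11, adjusted p = 5.92e-09). Its LGX818 and MEK162 arrays overlapped, and the difference from MEK162 alone did not pass (-0.44, adjusted p = 0.136). TTK, the spindle checkpoint kinase MPS1, stood at 3.82, 4.23 and 4.38 with LGX818 against 4.56, 4.67 and 4.85 and 5.78, 5.58 and 5.46 with MEK162 and trametinib (log2 difference -1.01, SE 0.14, adjusted p = 1.68e-05); the groups did not overlap. AURKB, the Aurora B kinase, and SKA1, a spindle and kinetochore protein, had log2 differences of -0.95 and -1.33 (SE 0.0963 and 0.17, adjusted p = 6.50e-08 and 1.95e-06). RAD51AP1, a recombination factor, and NEIL3, a DNA glycosylase, had log2 differences of -1.08 and -1.08 (SE 0.0972 and 0.086, adjusted p = 7.43e-09 and 1.06e-09). Many of these levels after drug are below 7.86, and without detection calls a difference between such low levels may be understated.

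CCND1, which encodes cyclin D1, was lower with LGX818 at 9.81, 9.77 and 9.75 than with MEK162 at 10.11, 10.14 and 10.33 and trametinib at 10.81, 10.79 and 10.82, from 11.85, 11.99 and 11.94 in DMSO. The groups did not overlap, and the gene passed against each drug, with -1.03 against trametinib and -0.42 against MEK162 (adjusted p = 9.21e-12 and 6.48e-04; log2 difference -0.73, SE 0.0588, adjusted p = 1.31e-09 against the mean). Of 13 D cyclins, CDK inhibitors and RB family genes, 3 were lower (CCND1, CDK6 and E2F5) and 0 higher. CDKN1A, the CDK inhibitor p21, did not pass in limma (log2 difference 0.04, SE 0.0471, adjusted p = 0.654), and 0 of 19 p53 targets were called. Among all tested genes 4.24% were higher and 5.61% lower, so few calls would fall in lists of this size.

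**Figure D3:**
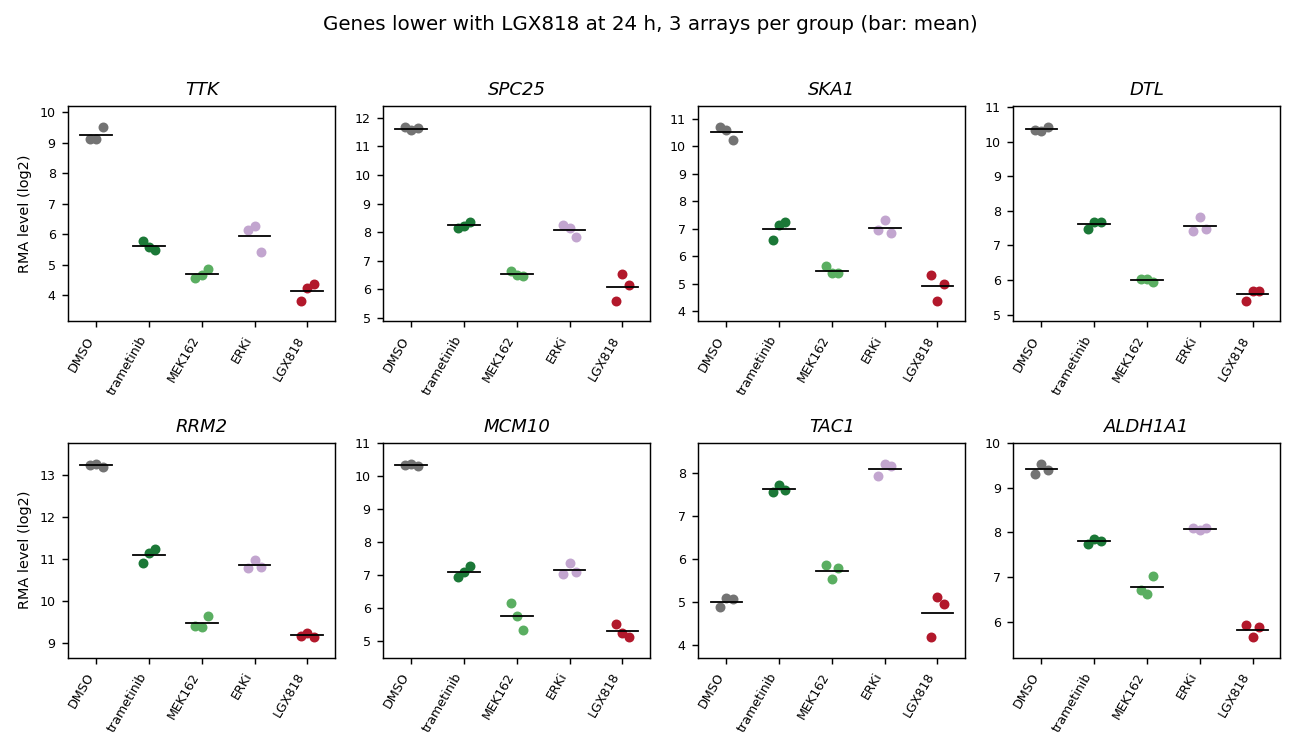
Log2 array levels at 24 h of 8 genes lower with LGX818 than with the mean of both MEK inhibitors; each point is 1 array and the bar is the mean of 3. The mitotic and replication genes stand close in the LGX818 and MEK162 groups and higher with trametinib and the ERK inhibitor. TAC1 is near the DMSO level with LGX818, and its DMSO, LGX818, trametinib and MEK162 arrays are all below the filter level.

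**Figure D4:**
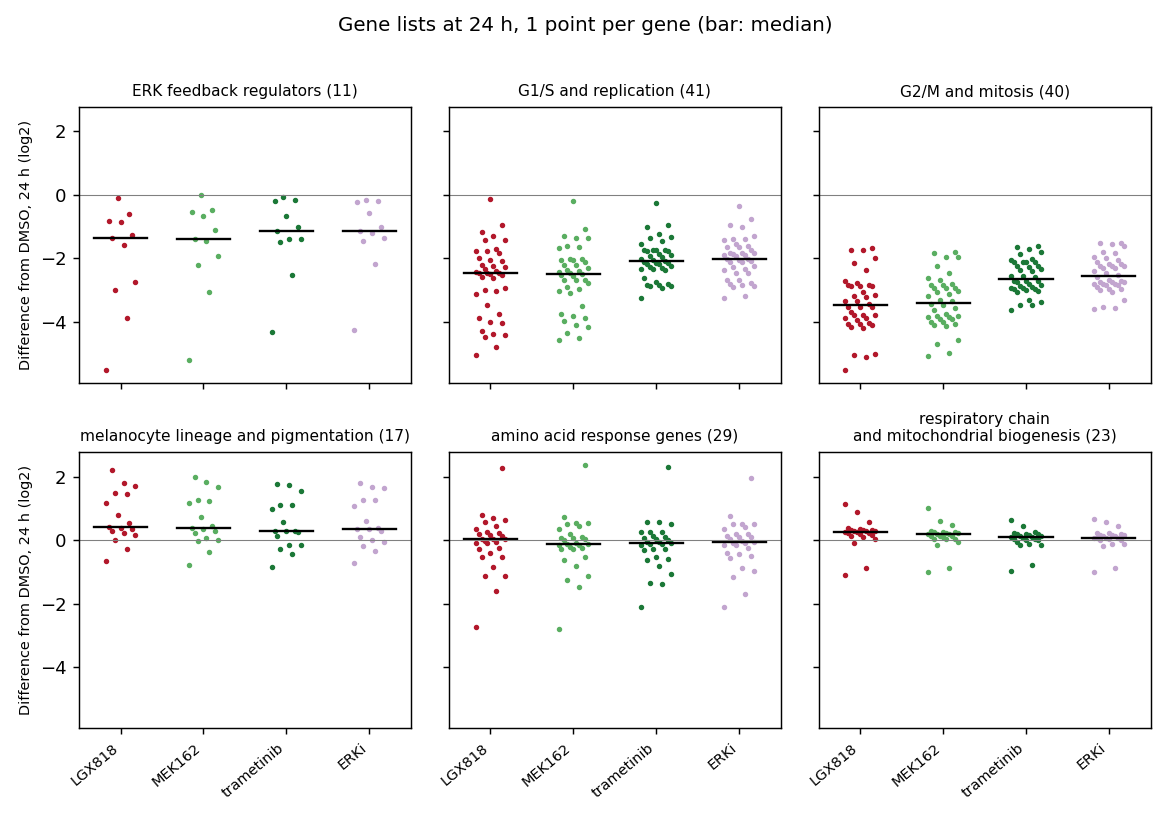
Difference from DMSO at 24 h in log2 for each tested gene of 6 lists under LGX818, MEK162, trametinib and the ERK inhibitor (ERKi); each point is 1 gene, the bar is the list median and the number in brackets counts the genes. The medians of the mitotic list were -3.48, -3.39, -2.64 and -2.55 in that order.

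The largest falls outside these lists were in TAC1, TRIM51 and ALDH1A1. In TAC1 and ALDH1A1 all 9 arrays compared were below the filter level of 7.86, so their differences lie between low levels. TAC1, the precursor of substance P, stood at 4.18, 5.12 and 4.94 with LGX818, 5.87, 5.53 and 5.79 with MEK162 and 7.55, 7.71 and 7.59 with trametinib, while DMSO stood at 4.87, 5.08 and 5.07. The LGX818 arrays thus overlapped DMSO and lay below all MEK inhibitor arrays (log2 difference -1.93, SE 0.19, adjusted p = 3.96e-08), and the ERK inhibitor arrays were at 7.93, 8.22 and 8.16. ALDH1A1, a retinaldehyde dehydrogenase that makes retinoic acid, went from 9.30, 9.54 and 9.40 in DMSO to 7.75, 7.85 and 7.81 with trametinib, 6.71, 6.63 and 7.02 with MEK162 and 5.93, 5.66 and 5.89 with LGX818, which is 2.76-fold below the MEK mean (log2 difference -1.47, SE 0.0986, adjusted p = 3.51e-11). TRIM51 was 3.18-fold lower (log2 difference -1.67, SE 0.15, adjusted p = 7.07e-09). MAP3K7CL and the homeobox gene DLX5 had log2 differences of -1.21 and -0.999 (SE 0.13 and 0.0681, adjusted p = 9.25e-08 and 3.97e-11). All 5 passed against MEK162 on its own as well, with -0.87 log2 for MAP3K7CL, -0.69 for DLX5 and between -0.96 and -1.08 for the other 3.

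In 9 called genes LGX818 and the MEK inhibitor mean both passed against DMSO on opposite sides of it, 3 with LGX818 above and 6 with LGX818 below. The 6 were FCGR2B (an inhibitory IgG Fc receptor), CLDN1 (a tight junction claudin), ARSJ (an arylsulfatase), PTPRF (a receptor tyrosine phosphatase), CDH19 (a cadherin) and TCF7L1 (a transcription factor of WNT signalling). CLDN1 stood at 9.67, 9.62 and 9.49 with LGX818, 10.01, 10.02 and 10.05 with DMSO, 10.17, 10.11 and 9.93 with MEK162 and 10.57, 10.61 and 10.64 with trametinib. Its LGX818 arrays were below DMSO and its trametinib arrays above, with MEK162 overlapping DMSO (log2 difference -0.75, SE 0.0498, adjusted p = 3.25e-11). FCGR2B gave 8.15, 8.12 and 8.32 with LGX818 and 8.94, 8.99 and 8.94 with DMSO, against 8.77, 8.98 and 9.03 with MEK162 and 9.38, 9.57 and 9.47 with trametinib (log2 difference -1.003, SE 0.0827, adjusted p = 1.79e-09). The differences of ARSJ, PTPRF, CDH19 and TCF7L1 ran from -0.69 to -0.31 log2. For FCGR2B, CLDN1 and ARSJ, MEK162 stood -0.03, 0.05 and 0.01 log2 from DMSO and trametinib 0.51, 0.58 and 0.49.

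BCL2, the founding anti-apoptotic member of its family, was lower with LGX818 while the MEK inhibitor mean stood near DMSO. Its levels were 6.75, 6.71 and 6.86 with LGX818, 7.25, 7.34 and 7.37 with MEK162, 7.84, 7.82 and 7.93 with trametinib and 7.64, 7.48 and 7.55 with DMSO. Of its 24 h group means, only those of trametinib (7.861) and the ERK inhibitor (7.998) exceeded the filter level of 7.858. LGX818 lay below all other arrays, MEK162 below DMSO and trametinib above it (log2 difference -0.81, SE 0.0659, adjusted p = 1.31e-09), and the ERK inhibitor stood 0.44 above DMSO. Of 11 BCL2 family genes, BCL2 and PMAIP1 were lower and BOK, a BAX-like member, was higher (log2 difference 0.52, SE 0.11, adjusted p = 0.00125 in limma). The shares over all tested genes were 5.61% lower and 4.24% higher. The call of PMAIP1, which encodes NOXA (-0.47, adjusted p = 0.0255), was lost on leaving out any of 4 of the 9 arrays. In all, 48 called genes passed with LGX818 against DMSO while the MEK inhibitor mean had an unadjusted p over 0.5 there, 27 of them higher and 21 lower with LGX818. Besides BCL2 the largest lower ones were LINC00327, SEPTIN6 (a septin), LPAR4 (a lysophosphatidic acid receptor) and NTM (a cell adhesion protein), from -0.77 to -0.49 log2. In LINC00327 and SEPTIN6, as in BCL2, the mean joined opposite values: trametinib stood 0.21 and 0.26 log2 from DMSO and MEK162 -0.21 and -0.29 (adjusted p = 0.0342, 0.00185, 0.0343 and 4.46e-04). The largest higher ones were FYB1, an adaptor protein, by 0.52 (SE 0.0724, adjusted p = 1.05e-05), and PROM1, a membrane glycoprotein, by 0.52 (adjusted p = 0.0094), whose call was lost without LGX818 array b or c (adjusted p up to 0.102).

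The 5 largest differences upward with LGX818, among genes whose arrays did not overlap, were in DAND5, CRB1, LOC100505912, KCNJ13 and SERPINF1, and in each of them both MEK inhibitors also stood above DMSO. DAND5, a secreted antagonist of Nodal and BMP ligands, stood at 8.71, 8.74 and 8.96 with LGX818, 8.01, 8.02 and 8.01 with MEK162, 7.14, 7.16 and 6.82 with trametinib and 5.99, 6.32 and 5.88 with DMSO. The 4 groups did not overlap, and LGX818 was 2.41-fold above the MEK mean (log2 difference 1.27, SE 0.12, adjusted p = 3.06e-08). KCNJ13, an inwardly rectifying potassium channel, rose from 4.54, 4.59 and 4.23 in DMSO to 7.95, 8.11 and 7.88 with trametinib, 8.99, 8.87 and 8.90 with MEK162 and 9.44, 9.27 and 9.47 with LGX818 (log2 difference 0.94, SE 0.12, adjusted p = 1.58e-06). SERPINF1, the secreted protein PEDF, was at 11.05, 11.01 and 11.18 with LGX818 and at 10.83, 10.41 and 10.54 and 9.86, 9.62 and 9.57 with MEK162 and trametinib (log2 difference 0.94, SE 0.11, adjusted p = 6.18e-07). Against MEK162 alone, DAND5 passed (0.78, adjusted p = 0.0021), and KCNJ13 and SERPINF1 did not (0.47 and 0.49, adjusted p = 0.107 and 0.0607). LOC100505912 was higher (log2 difference 0.97, SE 0.17, adjusted p = 3.35e-04). CRB1, a cell polarity protein, COL24A1, a collagen, KCNS1, a modulatory potassium channel subunit, and SPOCK1, a secreted proteoglycan, were higher by 1.04, 0.84, 0.83 and 0.69 log2 (adjusted p = 3.29e-05, 1.34e-05, 3.76e-06 and 0.00232). KCNS1 stood -0.10 log2 from DMSO with trametinib, which did not pass (adjusted p = 0.48). CYP26A1, which degrades retinoic acid, stood 0.18 from DMSO with LGX818, -0.37 with MEK162 and -0.67 with trametinib (difference from the MEK mean 0.69, SE 0.13, adjusted p = 6.11e-04). Against MEK162 alone in limma, COL24A1 passed (adjusted p = 0.0455). There CRB1, LOC100505912, KCNS1 and CYP26A1 did not pass (adjusted p = 0.153, 0.210, 0.0752 and 0.0895).

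SLC7A5, the large neutral amino acid transporter LAT1, was one of the 3 genes that LGX818 held above DMSO while the MEK inhibitor mean lay below it. Its arrays read 12.77, 12.79 and 12.67 with LGX818, 12.56, 12.64 and 12.61 with DMSO, 12.37, 12.36 and 12.41 with MEK162 and 12.08, 11.99 and 11.95 with trametinib. The groups did not overlap, and SLC7A5 passed against each drug, with 0.74 against trametinib and 0.36 against MEK162 (adjusted p = 8.40e-11 and 2.37e-04; log2 difference 0.55, SE 0.0475, adjusted p = 3.91e-09 against the mean). SLC3A2, its heavy chain, was higher by 0.40 (SE 0.12, adjusted p = 0.0261), a call lost without LGX818 array a or b or trametinib array c (adjusted p up to 0.137). Of 29 amino acid response genes, 5 were higher (SLC7A5, SLC3A2, SLC7A11, CTH and DDIT3) and 0 lower, with a median of 0.05 log2. Among all tested genes 4.24% were higher and 5.61% lower. In this list 1 was called without LGX818 array b, 2 without LGX818 array a and 2 without trametinib array c. ASNS, asparagine synthetase, did not pass (log2 difference 0.12, SE 0.0814, adjusted p = 0.371). The other 2 genes on opposite sides of DMSO were RAB27A and MRPL15, a mitochondrial ribosomal protein (log2 difference 0.22, SE 0.0427, adjusted p = 0.00107 in limma). MRPL15 stood 0.11, -0.02 and -0.19 log2 from DMSO with LGX818, MEK162 and trametinib. Against MEK162 alone it did not pass in limma (adjusted p = 0.337). The RAB27A arrays of MEK162 lay within the range of DMSO.

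**Figure D5:**
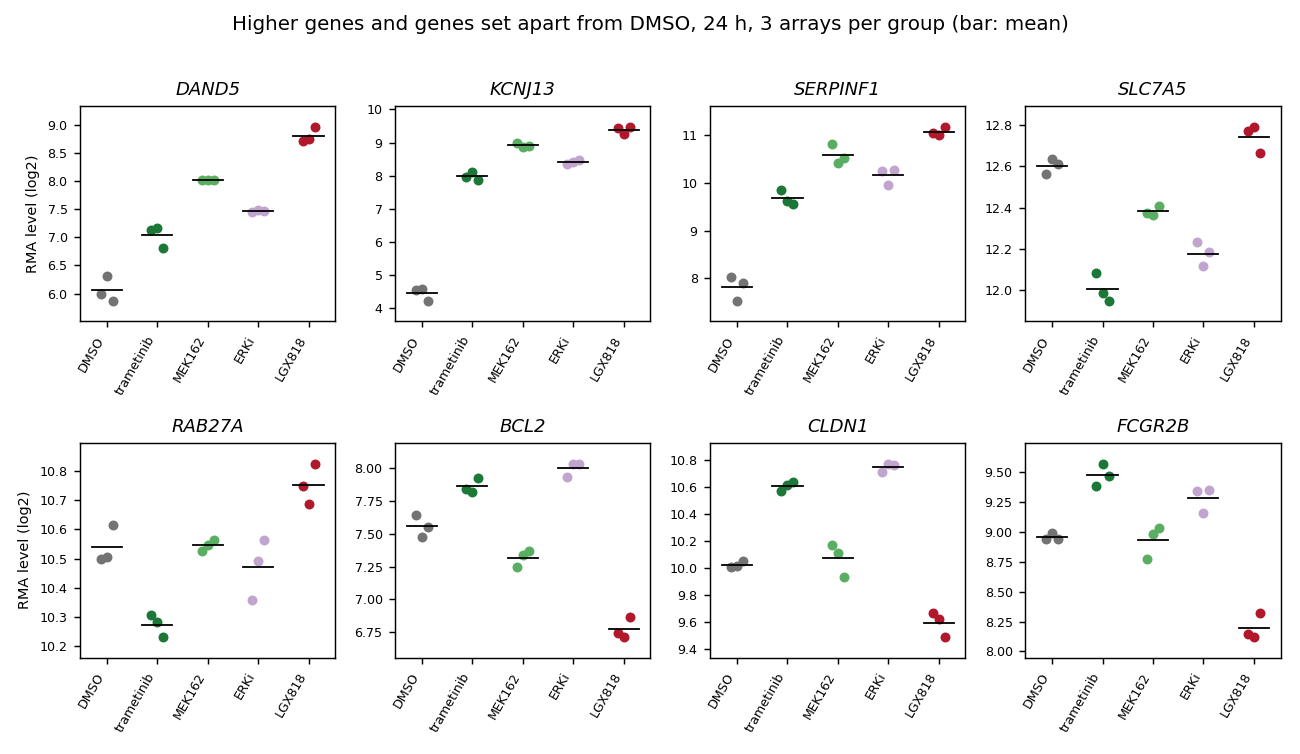
Log2 array levels at 24 h of 8 genes; each point is 1 array and the bar is the mean of 3. LGX818 stands above the other groups in DAND5, KCNJ13, SERPINF1, SLC7A5 and RAB27A and below them in BCL2, CLDN1 and FCGR2B.

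Pigmentation genes were modestly higher with LGX818: 6 of 17 were higher and 0 lower, with a median of 0.14 log2. The share of all tested genes that were higher was 4.24%. RAB27A, which tethers melanosomes to the actin network, read 10.75, 10.69 and 10.83 with LGX818, 10.53, 10.55 and 10.56 with MEK162, 10.31, 10.28 and 10.23 with trametinib and 10.50, 10.51 and 10.61 with DMSO (log2 difference 0.35, SE 0.0518, adjusted p = 3.26e-05). GPR143, a melanosomal receptor, and PMEL, the melanosome matrix protein, were higher by 0.33 and 0.32 (SE 0.0611 and 0.0748, adjusted p = 5.62e-04 and 0.00485), and MLANA, TRPM1 and EDNRB were the other 3. With both LGX818 arrays a and b left out, 3 of the list were higher. MITF, the lineage transcription factor, did not pass (log2 difference 0.08, SE 0.0415, adjusted p = 0.233). Against trametinib 10 of the 17 were higher and against MEK162 0 were, beside 7.71% and 0.206% of all tested genes. The list median against MEK162 was 0.09 log2. Of 15 dedifferentiation genes, 0 were called in the main comparison, while 2 were lower against trametinib, as were 8.48% of all tested genes.

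Genes of respiration and of the lysosome leaned the same way by small amounts, beside 4.24% higher and 5.61% lower among all tested genes. Of 23 respiratory chain and mitochondrial biogenesis genes, 7 were higher and 0 lower (median 0.10 log2). They included PPARGC1A, the coactivator PGC1A (log2 difference 0.33, SE 0.0702, adjusted p = 0.00195), and ESRRA, an orphan nuclear receptor, at 0.34 (adjusted p = 0.00661), a call lost without LGX818 array a (adjusted p = 0.0638). The other 5 were NDUFA9, SDHD, CYC1, ATP5F1B and IDH3A, between 0.15 and 0.31 log2. Without LGX818 array b, or without trametinib array c, 4 of the list were called. Of 31 lysosome and autophagy genes, 4 were higher (CTSF, CTSL, NPC1 and MCOLN1) and MAP1LC3C was lower. The call of MAP1LC3C was lost without LGX818 array a or c (adjusted p up to 0.0938) and that of CTSF without array b (adjusted p = 0.0609). MCOLN1, a lysosomal calcium channel, had the smallest p (log2 difference 0.42, SE 0.078, adjusted p = 6.11e-04); 2 of the list were higher without LGX818 array a and 2 without array b. With both left out, 1 respiratory and 0 lysosomal genes were called. When arrays were centred on their medians, the 2 list medians were 0.06 and 0.07 log2. Against trametinib alone, 11 respiratory genes were higher and 0 lower, and 11 lysosomal genes were higher and 1 lower. Of all tested genes, 7.71% were higher and 8.48% lower in that comparison. Against MEK162 alone, 0 genes of either list were called, where 0.206% of all tested genes were higher and 0.897% lower. The respiratory and lysosomal list medians against MEK162 were 0.06 and 0.05 log2.

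Scattered members of other lists differed, beside 4.24% higher and 5.61% lower among all tested genes. ADM, the vasoactive peptide adrenomedullin, was higher at 11.78, 11.66 and 11.68 with LGX818 against 11.38, 11.35 and 11.37 with MEK162 and 10.99, 10.95 and 10.78 with trametinib, below DMSO at 12.18, 12.22 and 12.16 (log2 difference 0.57, SE 0.0489, adjusted p = 3.69e-09). PFKFB4, a regulator of glycolysis, and ABCC2, a drug efflux pump, were higher by 0.48 and 0.46 (adjusted p = 7.90e-04 and 0.00161). VEGFA, an angiogenic growth factor, was lower (log2 difference -0.30, adjusted p = 0.00351). FBXO32 and TRIM63, muscle atrophy ubiquitin ligases that FOXO factors induce, were higher by 0.42 and 0.25 (adjusted p = 5.05e-04 and 0.00397), 2 of 3 higher genes among 22 FOXO and PI3K feedback genes. DKK1, a secreted WNT antagonist, rose from 8.39, 8.30 and 8.54 in DMSO to 11.92, 12.05 and 12.03 with trametinib, 11.43, 11.52 and 11.41 with MEK162 and 11.18, 11.21 and 10.96 with LGX818, where it was lowest of the 3 drugs (log2 difference -0.61, SE 0.0667, adjusted p = 2.11e-07). TNFRSF19, a WNT-induced receptor, and F3, tissue factor, were lower (log2 differences -0.55 and -0.59, adjusted p = 2.82e-06 and 5.16e-04). In the extracellular matrix list of 32 genes, SERPINF1 was higher, the largest difference of the list, and 5 were lower, among them ITGB8, an integrin, and LAMA4, a laminin (log2 differences -0.40 and -0.36, adjusted p = 1.10e-04 and 9.90e-06). CCL2, a monocyte chemokine, was lower (log2 difference -0.47, SE 0.11, adjusted p = 0.00505). Against MEK162 alone in limma, ADM, DKK1 and LAMA4 passed (adjusted p = 9.46e-04, 0.0209 and 0.00674). In that comparison PFKFB4, ABCC2, FBXO32, F3, ITGB8 and CCL2 did not pass (adjusted p from 0.0908 to 0.555). There were 0 calls among 18 unfolded protein response genes, 11 heat shock proteins and 6 aryl hydrocarbon receptor targets.

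The same contrast at 3 h, between other arrays of the same drugs and doses, gave 0 genes higher (0%) and 6 lower (0.0618%) in limma, with 782 at an unadjusted p under 0.05. The 6 were DUSP6, SPRY2, SPRY1, RND3, HES1 and POU3F2; RND3, HES1 and POU3F2 are named after their values were seen. DUSP6 at 3 h stood at 8.55, 8.47 and 8.55 with LGX818, 9.39, 9.37 and 9.36 with MEK162 and 10.41, 10.28 and 10.27 with trametinib, a log2 difference of -1.32 (adjusted p = 1.43e-12). The groups did not overlap at 3 h either, and the 24 h difference was not distinguishable from the 3 h one (0.13, SE 0.0996, adjusted p = 0.549). SPRY2 at 3 h differed by -0.94 and SPRY1 by -0.64 (adjusted p = 8.09e-09 and 0.00152), and neither passed for a change between times (adjusted p = 0.176 and 0.0818). RND3 differed by -0.22 at 3 h and -0.51 at 24 h; POU3F2, the factor BRN2, differed by -0.32 and -0.46; and HES1, a NOTCH target, by -0.38 and -0.09, of which the last did not pass at 24 h.

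The difference of the contrasts, 24 h minus 3 h, passed in 144 genes in the higher direction (1.48%) and 227 in the lower (2.34%). Cell cycle genes made up part of the second group: 23 of 40 mitotic and 12 of 41 replication genes passed there, and 0 passed in the higher direction; at 3 h these lists had medians of 0.02 and -0.02 log2 and 0 calls. CCND1 differed by 0.06 at 3 h and -0.73 at 24 h, a change of -0.78, SE 0.0832, adjusted p = 6.93e-07. The same held for DTL (-1.23, SE 0.10, adjusted p = 1.18e-08), ALDH1A1 (-1.52, SE 0.14, adjusted p = 6.63e-08) and, upward, DAND5 (1.22, SE 0.18, adjusted p = 4.74e-05). MYC differed by a similar amount at both times, -0.61 at 3 h, where it did not pass (adjusted p = 0.074), and -0.64 at 24 h (difference -0.03, SE 0.18, adjusted p = 0.942). SPRY4 went from -0.14 at 3 h to -0.77 at 24 h (-0.62, SE 0.18, adjusted p = 0.0452). Of the 544 genes lower at 24 h, 59.2% had a negative difference at 3 h, against 55% of all tested genes. The count of 371 fell to 238 without LGX818 3 h array a and to 246 without LGX818 24 h array b.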

How the data were processed

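Total RNA was biotin-labelled and hybridised to Affymetrix arrays. The deposited values are log2 levels, 1 per probe set and array, computed by the authors with affy and RMA according to the tool names in the submitters' processing notes; versions, chip definition and annotation build are not given in the sources used here. RMA brings the probe distributions of all arrays together, so a shift of all transcripts at once would not show. Of 18989 probe sets, 17875 carry 1 gene symbol in the platform table, 62 are controls and 1052 are unnamed and not used here. Genes below 7.86 log2 in every group mean of the inhibitor arm were not tested, which left 9703. The number of arrays limits the precision. In R 4.3.3, limma 3.58.1 fitted 1 mean per group over the 30 arrays of the inhibitor arm (lmFit, eBayes with intensity trend, 20 residual degrees of freedom), with Benjamini-Hochberg adjustment over all 9703 genes in each of 5 comparisons. Errors are SE of that fit. Genes were named by a rule: the 15 largest called differences in each direction whose arrays did not overlap, up to 2 called members per list and direction, up to 6 per direction on opposite sides of DMSO or with the MEK inhibitor mean near DMSO, the 5 largest changes over time in each direction, and genes fixed by name. Further members of lists are named as counted. The comparison, genes and lists were chosen with earlier results of these data known. Of the genes fixed by name, 3 are not in the probe table and are not reported here, and BCL2L11, TRIB3, CYP1A1 and CYP1B1 lay below the filter. Same-lettered arrays at 24 h did not deviate together: 1 of 9 correlations between groups exceeded 0.1 (range -0.18 to 0.24), so letters were not used as a block; at 3 h 6 of 9 did, from -0.27 to 0.55. Alternatives changed the arrays in the fit, the filter, the trend, array weights, scaling, the block, a minimum difference and each array in turn. Promoter windows were matched by symbol to RefSeq for 8158 of 9703 genes.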

Additional observations from a re-analysis of the deposited data

Results flagged for a closer look

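The LGX818 minus MEK inhibitor difference changed between 3 h and 24 h in 371 genes, by the difference of the contrasts in limma at an adjusted p under 0.05. Among the genes named, the change (24 h minus 3 h, log2) was negative in 33 and positive in 26. The negative values of 1 or more in size were TAC1 -1.64, TRIM51 -1.55, ALDH1A1 -1.52, SPC25 -1.28, DTL -1.23, SKA1 -1.21, MAP3K7CL -1.18, RAD51AP1 -1.15, RRM2 -1.14, NEIL3 -1.12, MCM10 -1.07, TTK -1.06 and DLX5 -1.05. Between -1 and -0.5 they were BCL2 -0.84, ARSJ -0.82, CCND1 -0.78, EGR3 -0.73, FCGR2B -0.70, CLDN1 -0.68, F3 -0.63, SPRY4 -0.62, SEPTIN6 -0.59, DKK1 -0.58 and TNFRSF19 -0.54. The smaller ones were LINC00327 -0.48, ITGB8 -0.48, NTM -0.47, PTPRF -0.46, LPAR4 -0.46, CDH19 -0.40, VEGFA -0.33, LAMA4 -0.32 and ME1 -0.26. Positive values were led by DAND5 1.22, SERPINF1 1.18, CRB1 1.15, KCNJ13 0.96, SPOCK1 0.90, KCNS1 0.86, ANKRD7 0.85, LRRC39 0.84 and COL24A1 0.81. Those between 0.5 and 0.8 were CYP26A1 0.80, CD68 0.69, PROM1 0.65, LCN10 0.64, NAT16 0.60, ADM 0.59, ACSF2 0.55, BOK 0.54 and FYB1 0.53. The smallest positive values were FBXO32 0.47, PMEL 0.45, MAFF 0.43, MCOLN1 0.43, SLC7A5 0.39, GPR143 0.39, RAB27A 0.34 and MRPL15 0.29. CD68 and FYB1 are known mainly from leukocytes; CD68 was the 1 of 6 leukocyte markers above the filter level in these arrays, and the part of other cells in its change was not tested.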

How the results depend on the processing

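With the 5 counts in the order of the mean comparison, trametinib, MEK162, 3 h and the difference between times (955, 1571, 107, 6 and 371 calls), array weights, fitted gene by gene because the default did not converge, gave 2490, 3676, 187, 224 and 1582, and a minimum difference of 0.2 log2 (treat) gave 175, 369, 18, 2 and 88. With only the arrays of a contrast in the fit, the MEK162 count was 15 and the mean comparison split into 578 higher and 477 lower, against 411 and 544. Arrays centred on their medians split it into 291 and 699, while the median of all genes went from 0.02 to -0.03 log2. With LGX818 arrays a and b left out 349 genes were called. Leaving out 1 array at a time gave 550 (without LGX818 array b) to 953, 955 (without trametinib array c) to 1522, 77 to 93, 6 to 6 and 238 (without LGX818 3 h array a) to 501; without LGX818 array b the trametinib count was 1020 and the difference between times 246. The cause of these changes was not tested. With the replicate block the counts were 1019, 1658, 107, 7 and 392; the letters are shared by number alone. The other level filters, the fit without trend, the fit of all 54 arrays and repeated quantile normalization kept each count within 1.5 times. Of 103 called named genes, 0 changed sign, 70 passed without each array in turn and 55 did not pass with treat. Over all settings 59 were lost in at least 1, where a gene that a stricter filter removed was not counted as lost. Of the 12 not called, 7 changed sign. Levels near the lower end of the arrays cannot be told from background.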

Other observations

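Other lists held few calls, given here as log2 differences of LGX818 minus the MEK inhibitor mean. Among all tested genes 4.24% were higher and 5.61% lower. Of 13 receptor tyrosine kinases and ligands, 3 were lower, all of them ligands: TGFA (-0.31, adjusted p = 0.0218 in limma), FGF2 (-0.23, adjusted p = 0.0281) and VEGFA (-0.30, adjusted p = 0.00351). The call of TGFA was lost without LGX818 array b or c, with an adjusted p of up to 0.142. Of 15 YAP-TEAD targets, 3 were lower (F3, AMOTL1 and AJUBA), and AMOTL1 (-0.20) lost its call on leaving out any of 4 of the 9 arrays. Of 14 NRF2 targets, HMOX1, heme oxygenase (0.32), and SLC7A11, the cystine transporter (0.19), were higher and ME1, malic enzyme (-0.19), was lower, and each of these calls was lost on leaving out at least 2 of the arrays in turn. Of 24 cholesterol and fatty acid synthesis genes 1 was lower, of 20 antigen presentation and interferon genes 1 was lower, and of 32 ribosome biogenesis genes 2 were higher and 1 was lower. ACSF2, a mitochondrial acyl-CoA synthetase, was among the largest differences upward (log2 difference 0.67, SE 0.10, adjusted p = 5.28e-05), and its level stood 1.52, 1.004 and 0.69 log2 from DMSO with LGX818, MEK162 and trametinib. CYP26A1 and ALDH1A1, which break down and make retinoic acid, differed in opposite directions, by 0.69 and -1.47 log2.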
